A study of Mus musculus with 20 samples.

Results

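The genes described here are the glutathione transferases and the antioxidant genes around the transcription factor NRF2, measured by RNA-Seq in mouse NMuMG cells, a mammary epithelial line without tumor origin, and in lines derived from them. Members were chosen by name and gene type: protein-coding rows of the table whose symbol is a Gsta, Gstk, Gstm, Gsto, Gstp or Gstt transferase, a microsomal transferase (Mgst1, Mgst2, Mgst3) or a glutathione peroxidase (Gpx), and 16 named genes of the NRF2 response (Nfe2l2, Keap1, Nqo1, Hmox1, Gclc, Gclm, Gsr, Txnrd1, Txn1, Srxn1, Prdx1, Sod1, Sod2, Sod3, Cat, G6pdx). This gave 47 of 54986 genes. The 10 groups of 2 libraries each were sequenced as 2 kinds of library, and groups were compared only within a kind. The tumor progression libraries hold parental NMuMG, NMuMG treated with TGFβ, E1KD (NMuMG silenced for hnRNP E1, the protein of the Pcbp1 gene), M1P (cells recovered from the primary tumor that E1KD cells formed in the mammary fat pad of immunodeficient NOD/SCID mice) and L1P (cells recovered from the lung metastases of those tumors). M1P and L1P therefore still carry the silencing, and both were cultured before RNA was taken. The Platr18 libraries hold NMuMG with an empty vector (Empty_vector), 2 NMuMG clones overexpressing the long noncoding RNA Platr18 (clone 12 and clone 16, each a single clone), E1KD with a scrambled shRNA (E1KD_SCR) and E1KD with an shRNA against Platr18 (E1KD_Platr18KD). E1KD_SCR and Empty_vector differ in the vector as well as in hnRNP E1. No label says whether the 2 libraries of a group came from separate cultures, so the p-values measure the spread between these libraries, which may be technical.

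NRF2, made from Nfe2l2, is a transcription factor that KEAP1 holds in the cytoplasm and marks for degradation. Oxidants and electrophiles modify KEAP1, and NRF2 then enters the nucleus and binds antioxidant response elements with small MAF proteins. Its best known targets make and recycle glutathione (Gclc, Gclm, Gsr), supply NADPH (G6pdx), reduce quinones and degrade heme (Nqo1, Hmox1) and feed the thioredoxin system (Txnrd1, Srxn1, Prdx1). Glutathione transferases couple glutathione to electrophiles, and in the mammary gland they are known for handling lipid peroxidation products and estrogen quinones.

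Values are read counts divided by the total of each library, per M (mega) reads (CPM), and a value of 0 below stands for the constant of 0.0001 CPM that the authors added to every entry. By the steps of the low values, the progression libraries were scaled to between 50.8 and 60.0 M reads and the Platr18 libraries to between 63.0 and 147.3 M, so that 3 reads on a gene are worth 0.04998 to 0.0591 CPM in the first kind and 0.0204 to 0.0477 CPM in the second. The mitochondrial ribosomal RNA mt-Rnr2 took 333 to 492 CPM in the first kind and 113900 to 165100 CPM in the second. Pcbp1 had 287 and 312.0 CPM in NMuMG against 16.6 and 14.2 CPM in E1KD, and 32.3 CPM in each Empty_vector library against 3.28 and 3.46 CPM in E1KD_SCR. Platr18, listed as Lncenc1, had 3092 and 3096 CPM in clone 12, 813 and 819.8 CPM in clone 16 and 3.69 and 3.06 CPM in Empty_vector, while it had 0.136 and 0.170 CPM in E1KD_Platr18KD against 2.92 and 3.097 CPM in E1KD_SCR. E1KD replicate 1 stood apart: its CPM summed to 0.729 M against 0.548 to 0.581 M in the other progression libraries, and its log2 ratio to replicate 2 had a median of 0.29 over all tested genes and of 0.48 over the tested members. Each comparison with E1KD is therefore also given without this library or after rescaling. Of 10 epithelial markers, Krt8, Krt18, Krt19, Cdh1 and Ocln were present in every group, while group means of Epcam did not exceed 0.00845 CPM and those of Cldn7 did not exceed 0.0195 CPM. From NMuMG to TGFβ the mean of Krt19 went from 485 to 18.1 CPM and that of Cldn4 from 0.119 to 19.3 CPM. The 10 epithelial markers summed to 2935 to 2989 CPM in NMuMG, 1762 to 2088 CPM with TGFβ and 2831 to 3970 CPM in E1KD. In E1KD the means of Krt8, Krt18 and Krt19 were above those of NMuMG and the means of Cdh1 and Ocln below. The 8 mesenchymal markers summed to 535.5 to 556.5 CPM in NMuMG, 1391 to 1605 CPM with TGFβ and 1351 to 1833 CPM in E1KD. Their sums were 657 to 695 CPM in Empty_vector and 768 to 833 CPM in E1KD_SCR. For cells of the host in M1P and L1P, the 5 endothelial markers summed to 0.234 to 0.628 CPM, the leukocyte marker Ptprc had group means of 0.0617 and 0.0293 CPM, and the lung markers Sftpc and Sftpb were at or near 0. The 9 leukocyte markers summed to 87.7 to 108 CPM in M1P and L1P and to 89.0 to 101 CPM in E1KD, most of it from Cd14. Of them Lyz2 was higher in M1P and L1P, with means of 3.05 and 4.66 CPM against 0.221 CPM in E1KD. Means of the lung marker Napsa were 0.106 CPM for M1P, 1.23 CPM for L1P and 0.487 CPM for E1KD. The part of host cells in the values of M1P and L1P was not tested.

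Promoter sequences were read from RefSeq (GRCm38.p6) for 41 of the 47 members, as windows from 250 bases before to 50 bases after each start site. The promoters of Gclc, Gsr, Gsta4, Gstt2, Hmox1 and Sod3 were not analysed here. The windows of the 41 members were searched on both strands for the core of the antioxidant response element, TGACNNNGC, and for the AP-1 motif, TGANTCA, whose letters can overlap the first. The core was in 11 of 54 member windows (20.4%) and in 12.4% of the 32851 windows of all genes, and the AP-1 motif in 11.1% and 7.81% of them. Each was in windows of 11 and 6 members, respectively. The stretches below are those of members that were called in at least 1 comparison and hold a match, with the gene of NRF2 itself. Capitals mark the match, and letters run 5′ to 3′ on the strand of the gene.
Gsta3 (antioxidant response element core, chr1:21240424-21240512, plus strand): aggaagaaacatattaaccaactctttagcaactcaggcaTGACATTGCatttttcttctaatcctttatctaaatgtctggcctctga
Mgst1 (core, on the opposite strand, chr6:138140431-138140519, plus strand): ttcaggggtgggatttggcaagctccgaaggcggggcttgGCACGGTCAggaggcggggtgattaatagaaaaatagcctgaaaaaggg
G6pdx (core, on the opposite strand, chrX:74428889-74428977, minus strand): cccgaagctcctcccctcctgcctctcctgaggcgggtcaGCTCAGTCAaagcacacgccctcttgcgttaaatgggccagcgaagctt
Prdx1 (core, on the opposite strand, overlapping an AP-1 match, chr4:116685426-116685514, plus strand): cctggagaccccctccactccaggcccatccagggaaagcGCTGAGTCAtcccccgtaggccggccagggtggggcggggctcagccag
Nfe2l2 (core, chr2:75704855-75704913, minus strand): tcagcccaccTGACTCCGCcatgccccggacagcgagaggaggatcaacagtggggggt
Mgst2 (AP-1, chr3:51661087-51661173, plus strand): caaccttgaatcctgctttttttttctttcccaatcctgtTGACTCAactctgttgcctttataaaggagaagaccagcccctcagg
Gstp1 (AP-1, chr19:4037940-4038026, minus strand): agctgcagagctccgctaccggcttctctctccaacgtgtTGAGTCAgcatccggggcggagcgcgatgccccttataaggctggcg
Gstp2 (AP-1, chr19:4042264-4042350, minus strand): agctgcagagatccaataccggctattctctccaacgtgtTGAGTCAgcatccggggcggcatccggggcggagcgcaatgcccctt
Prdx1 has a second AP-1 match farther from its start, at chr4:116685349-116685408, which overlaps no core. A match describes letters in the window and no binding was measured. The Gstp1 and Gstp2 stretches share a run of letters around the motif.

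Of the 47 members, 32 reached 1 CPM in at least 2 of the 20 libraries and were tested. The 15 others were Nqo1, Gstk1, Gstm3, Gstm4, Gstm6, Gstm7, Gstt1, Gstt2, Gstt3, Gstt4, Gpx2, Gpx3, Gpx5, Gpx6 and Gpx7. Each of these stayed at or below 0.541 CPM in all 20 libraries, while 23 members had at least 1 CPM in every library. A member was called when its difference on the log2(CPM + 1) scale had an unadjusted p under 0.001 in limma and was at least 1 in size. Over the 7 comparisons of a condition with its control, 16 of the 32 tested members were called at least once. The share of all genes called at least once was not counted, so this number has no background beside it. The differences below are log2 fold changes on this scale, which understates changes of genes with few reads. Each is followed by its standard error (SE) and its Benjamini-Hochberg adjusted p over all 17106 genes tested. The spread behind SE and p is pooled over all 10 groups. For E1KD, whose libraries stood apart, they therefore do not measure the spread of that group alone.

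**Figure D1:**
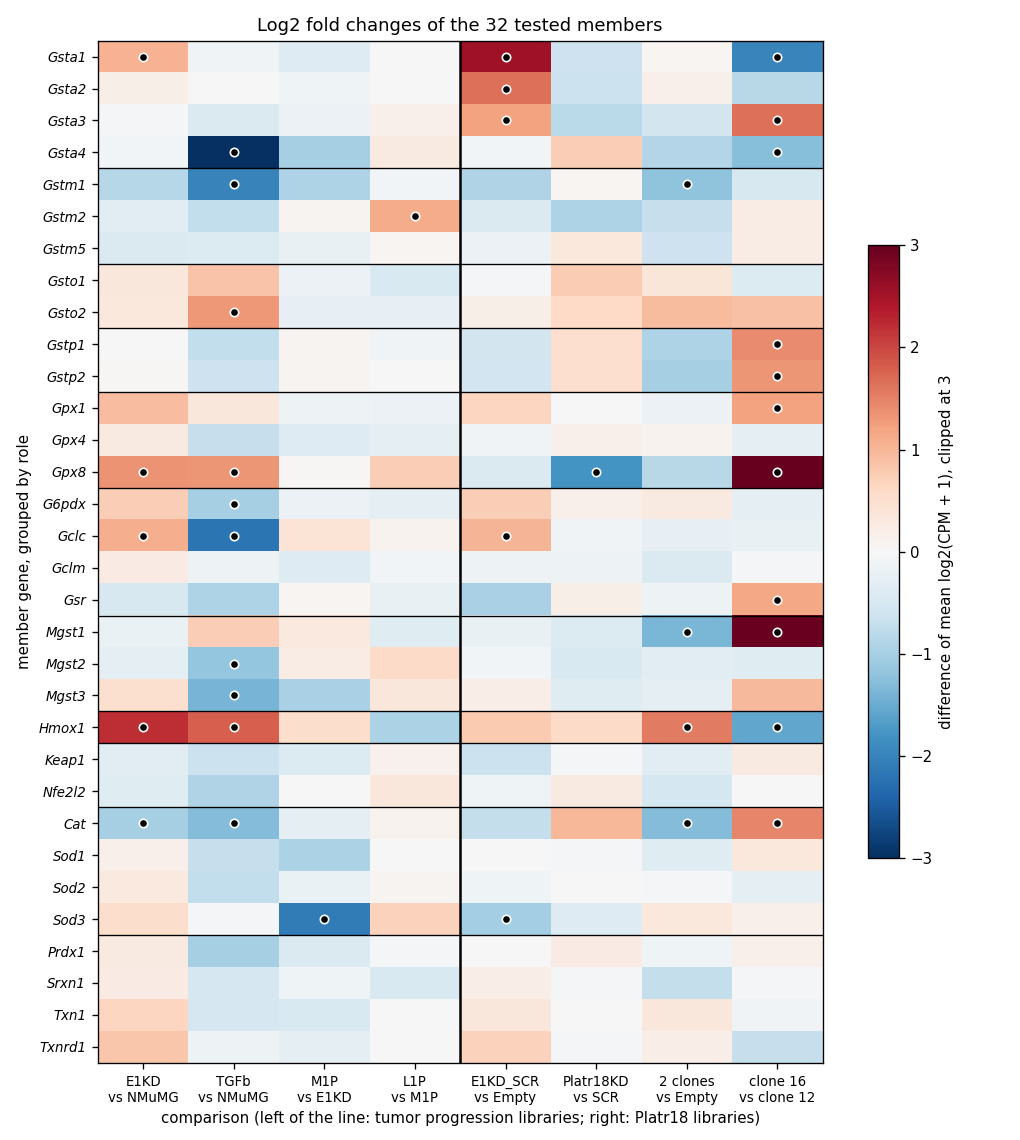
Log2 fold changes of the 32 tested members (rows, grouped by role) in 8 comparisons (columns), as differences of mean log2(CPM + 1) from limma with colors clipped at 3; black points mark called members. TGFβ gives a column with 25 of 32 members below 0, while the last column, clone 16 against clone 12, holds 11 called members.

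TGFβ treatment lowered 7 members and raised 3. Those that fell were Gsta4, Gclc, Gstm1, Mgst3, Cat, Mgst2 and G6pdx, the genes of 2 cytosolic and 2 microsomal transferases, of the catalytic subunit of glutathione synthesis, of catalase and of the enzyme that opens the NADPH-yielding pentose phosphate pathway. Hmox1, Gpx8 and Gsto2 rose. Over all genes tested 7.66% were called lower and 5.85% higher, and of the 32 tested members 21.9% and 9.38% were, which is 14.9% and 6.38% of all 47. The median log2 fold change of the tested members was -0.64, with 25 below 0 and Gsta2 at 0, against -0.08 over all tested genes. At an adjusted p under 0.05 without a limit on size, 27 of the 32 tested members passed, beside 55.4% of all genes. Rescaling by the median of ratios moved the balance over all genes to 7.67% higher and 5.99% lower, and under it 6 members fell and 4 rose, with G6pdx no longer called, Gsto1 added, and a members' median of -0.49. In bulk RNA, fewer cells of a type and less RNA per cell cannot be told apart.

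Silencing of hnRNP E1 in the progression libraries raised Hmox1, Gpx8, Gclc and Gsta1 and lowered Cat. Over all genes tested 6.44% were called higher and 2.99% lower, and the shares of the 32 tested members were 12.5% and 3.12%. Of the tested members, 23 passed at an adjusted p under 0.05, beside 56.6% of all genes. The members' median was 0.25 and that of all genes 0.17. Rescaling by the median of ratios took the latter to 0.02 and the calls over all genes to 4.37% higher and 4.06% lower. Under that rescaling, and without E1KD replicate 1, Hmox1, Gpx8 and Cat were called and Gclc and Gsta1 were not.

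The steps to tumor and metastasis moved few members past the limits. Sod3, the extracellular superoxide dismutase, fell from E1KD to M1P and was the only member called there, beside 1.16% of all genes called higher and 2.43% lower. In that comparison 12 tested members passed at an adjusted p under 0.05, beside 49.1% of all genes, and rescaling by the median of ratios moved the calls over all genes to 1.81% higher and 1.74% lower without changing the members called. Gstm2, a mu class transferase, rose from M1P to L1P and was likewise the only member called, beside 0.742% of all genes higher and 0.468% lower. Here 9 tested members passed at an adjusted p under 0.05, and 18.5% of all genes did. With 1 library left out, the log2 fold change of Sod3 from E1KD to M1P ran from -2.15 to -2.06. Just under the limit there were Gsta4 at -0.99, Mgst3 at -0.97, Sod1 at -0.94 and Gstm1 at -0.92. These falls include E1KD replicate 1, which stood apart.

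In the Platr18 libraries, E1KD_SCR against Empty_vector raised Gsta1, Gsta2, Gsta3 and Gclc and lowered Sod3. Over all genes tested 2.91% were called higher and 3.07% lower, and of the 32 tested members 12.5% and 3.12%. The share of members called higher includes Gsta2, which passed the filter only through E1KD_SCR and E1KD_Platr18KD. Of the tested members 18 passed at an adjusted p under 0.05, beside 42.6% of all genes. The means of both Platr18 clones against Empty_vector raised Hmox1 and lowered Mgst1, Cat and Gstm1, beside 0.427% of all genes higher and 1.03% lower, and 21 tested members passed at an adjusted p under 0.05, beside 28.8% of all genes. Of these, taken singly, clone 12 passed the limits for Hmox1, Mgst1 and Cat and clone 16 for Gstm1, and none passed in both clones. Clone 12 alone also passed for Gpx8 (-2.35), Gstp2 (-1.66), Gstp1 (-1.63), Gsta3 (-1.39) and Gsta1 (1.05). Clone 16 alone also passed for Gsta4 (-1.52) and Gsto2 (1.40). The share of all genes called for a single clone was not counted. The p-values for the mean rest on the spread between libraries of a clone and do not measure the spread between clones. Silencing of Platr18 in E1KD lowered Gpx8 and called no other member, beside 0.485% of all genes higher and 0.994% lower. In that comparison 14 tested members passed at an adjusted p under 0.05, beside 19.5% of all genes. Both comparisons with Empty_vector share its 2 libraries, as the TGFβ and E1KD comparisons share those of NMuMG.

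Neither regulator passed the limit of 1 in any comparison. Nfe2l2 had 115 and 116 CPM in NMuMG, 60.5 and 62.8 CPM with TGFβ, 100 and 80.2 in E1KD, 86.7 and 90.5 in M1P and 114 and 112 in L1P. Its log2 fold change with TGFβ was -0.90 (SE 0.0787, adjusted p = 2.0e-07), and the TGFβ libraries were the lowest of this kind. In the Platr18 libraries it had 112 and 110.5 CPM in Empty_vector, 77.4 and 76.1 CPM in clone 12, 75.9 and 77.4 CPM in clone 16, 104 and 99.1 CPM in E1KD_SCR and 123.2 and 121 CPM in E1KD_Platr18KD. Both clones were below every other library of that kind, with a log2 fold change of -0.53 (SE 0.0681, adjusted p = 4.6e-05) for their mean against Empty_vector, and the libraries of clone 12 and clone 16 overlapped. Keap1, the inhibitor, had 63.2 and 67.3 CPM in NMuMG and 38.8 and 43.3 CPM with TGFβ, a log2 fold change of -0.66 (SE 0.0983, adjusted p = 4.8e-05). It had 42.2 and 41.0 CPM in Empty_vector and 24.9 and 27.5 CPM in E1KD_SCR, a log2 fold change of -0.65 (SE 0.0983, adjusted p = 9.5e-05). The TGFβ and E1KD_SCR libraries lay below their controls for Keap1 without overlap. An antisense gene, RP23-186O3.5, overlaps Keap1 with at most 8.13 CPM, and whether reads were counted by strand is not given in the sources used here.

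Among the genes of glutathione supply, Gclc moved in opposite directions with TGFβ and with hnRNP E1 silencing. Gclc (ENSMUSG00000032350.9, chr9:77754535-77794486, plus strand, GRCm38), the catalytic subunit of glutamate-cysteine ligase, had 53.7 and 53.0 CPM in NMuMG, 11.02 and 10.7 CPM with TGFβ, 131 and 99.95 in E1KD, 153 and 150.4 in M1P and 162 and 166 in L1P. The TGFβ libraries lay below all others and the NMuMG libraries below E1KD, M1P and L1P. The log2 fold change was -2.20 (SE 0.0892, adjusted p = 4.1e-11) with TGFβ and 1.085 (SE 0.0892, adjusted p = 1.4e-07) with silencing. The second was 0.87 after rescaling by the median of ratios and 0.89 without E1KD replicate 1. In the other kind of library Gclc had 106 and 103 CPM in Empty_vector and 217 and 206 CPM in E1KD_SCR, a log2 fold change of 1.01 (SE 0.0892, adjusted p = 4.5e-07), and 200.3 and 196 CPM in E1KD_Platr18KD. The size of the rise in E1KD_SCR sat at the limit and was 0.97 after rescaling by the median of ratios, and it was not called without Empty_vector replicate 2 or without E1KD_SCR replicate 1. The difference between the rises in both kinds of library was 0.08 with an adjusted p of 0.68, and its SE was 0.126.

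Gclm, the modifier subunit of the same ligase, was called in no comparison. Its group means ran from 50.6 to 72.3 CPM in the progression libraries and from 45.4 to 62.5 CPM in the Platr18 libraries, and RP23-71G16.1, a pseudogene on the same strand inside it, had means of 111 to 317 CPM over the groups. The log2 fold change of Gclm with TGFβ was -0.16 (SE 0.147, adjusted p = 0.39), beside that of Gclc above. G6pdx, the first enzyme of the pentose phosphate pathway, had 51.3 and 49.7 CPM in NMuMG, 23.9 and 25.4 CPM with TGFβ and 101 and 70.8 in E1KD. It fell with TGFβ by 1.005 (SE 0.112, adjusted p = 2.6e-06), at the limit, and its log2 fold change in E1KD was 0.74 (SE 0.112, adjusted p = 7.1e-05) and that in E1KD_SCR 0.73 (SE 0.112, adjusted p = 1.0e-04). All 3 groups lay apart from their controls. Gsr, glutathione reductase, had 313 and 304 CPM in Empty_vector, 157 and 158 CPM in E1KD_SCR, 187 and 187 CPM in clone 12 and 412 and 423 CPM in clone 16. Its log2 fold changes with TGFβ and in E1KD_SCR were -0.93 and -0.97, just under the limit, with adjusted p of 9.3e-07 and 1.3e-06.

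Hmox1, heme oxygenase 1, which breaks heme down to biliverdin, iron and carbon monoxide, was higher in every line and treatment than in NMuMG or Empty_vector. It had 10.3 and 9.504 CPM in NMuMG, 37.2 and 36.9 CPM with TGFβ, 55.4 and 44.7 in E1KD, 71.7 and 72.4 in M1P and 37.4 and 36.8 in L1P. None of the other libraries overlapped NMuMG, and M1P was the highest group. The log2 fold change was 2.22 (SE 0.0800, adjusted p = 1.3e-11) in E1KD and 1.80 (SE 0.0800, adjusted p = 1.1e-10) with TGFβ. From M1P to L1P it was -0.94 (SE 0.0800, adjusted p = 1.6e-06), not past the limit. Among the Platr18 groups Hmox1 had 12.8 and 12.5 CPM in Empty_vector, 67.4 and 68.2 CPM in clone 12, 22.1 and 23.01 CPM in clone 16, 22.7 and 22.6 CPM in E1KD_SCR and 34.1 and 34.5 CPM in E1KD_Platr18KD. Both clones lay above Empty_vector, clone 12 more so, and the fold change of their mean was 1.56 (SE 0.0693, adjusted p = 1.1e-09). In E1KD_SCR it was 0.79 (SE 0.0800, adjusted p = 1.9e-06) and did not pass the limit. Nqo1, the quinone reductase often used to read NRF2 activity, was low in all lines. The highest library, of E1KD_SCR, had 0.541 CPM, and the NMuMG libraries had 0.0709 and 0.0944 CPM. In the clone 16 libraries it had 0.0140 and 0 CPM.

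In the thioredoxin system, no member was called against NMuMG or Empty_vector. Prdx1, a peroxiredoxin that reduces hydrogen peroxide, had 224 and 216 CPM in NMuMG, 105 and 114 CPM with TGFβ and 328 and 212 in E1KD. Its log2 fold change with TGFβ was -0.998, just under the limit of 1 in size, with an adjusted p of 1.6e-05. Txn1, thioredoxin, had 18.3 and 15.7 CPM in NMuMG, 11.3 and 12.2 CPM with TGFβ and 35.6 and 20.7 in E1KD. Its E1KD libraries stood apart from each other by more than E1KD replicate 2 stood from NMuMG. Group means of Txnrd1, thioredoxin reductase 1, ran from 104 to 207 CPM in the progression libraries, where E1KD was highest, and from 91.6 to 164 CPM in the Platr18 libraries, where E1KD_SCR was highest. The log2 fold changes of Txnrd1 were 0.83 (SE 0.0859, adjusted p = 1.6e-06) in E1KD and 0.70 (SE 0.0859, adjusted p = 1.4e-05) in E1KD_SCR. Srxn1, which repairs overoxidized peroxiredoxins, had means of 39.0 to 66.6 CPM and of 20.96 to 41.5 CPM in the kinds of library, and both clones had the lowest of the latter, with a log2 fold change of -0.72 (SE 0.0580, adjusted p = 5.9e-07).

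Cat, catalase, which splits hydrogen peroxide, was lower in every other progression group than in NMuMG. It had 78.8 and 77.7 CPM in NMuMG, 30.4 and 31.5 CPM with TGFβ, 46.0 and 32.4 in E1KD, 32.6 and 31.0 in M1P and 33.7 and 34.6 in L1P. All 8 libraries of changed conditions were below NMuMG, with log2 fold changes of -1.31 (SE 0.112, adjusted p = 1.5e-07) with TGFβ and -1.001 (SE 0.112, adjusted p = 3.7e-06) in E1KD. The latter was -1.21 after rescaling by the median of ratios and -0.75 without E1KD replicate 2, where it was not called, and it was not called without NMuMG replicate 1. Among the Platr18 groups Cat had 147 and 137 CPM in Empty_vector, 33.5 and 34.9 CPM in clone 12, 95.5 and 95.6 CPM in clone 16, 91.0 and 82.8 CPM in E1KD_SCR and 172 and 174 CPM in E1KD_Platr18KD. Its log2 fold change was -1.29 (SE 0.0971, adjusted p = 2.6e-07) for the mean of the clones, with clone 12 at -2.02 and clone 16 at -0.57. In E1KD_SCR it was -0.70 (SE 0.112, adjusted p = 1.5e-04). With Platr18 silencing it was 0.98 (SE 0.112, adjusted p = 2.2e-05), just under the limit, and after rescaling by the median of ratios or to equal sums it was called higher.

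Of the superoxide dismutases, Sod3, the secreted form, was the one called in comparisons with a control. It had 4.41 and 4.68 CPM in NMuMG, 4.17 and 4.60 CPM with TGFβ, 7.24 and 6.78 in E1KD, 0.838 and 0.886 in M1P and 1.92 and 2.14 in L1P. M1P and L1P lay below every library of the other 3 groups, and the log2 fold change from E1KD to M1P was -2.10 (SE 0.0777, adjusted p = 5.6e-11). From M1P to L1P it was 0.70 (SE 0.0777, adjusted p = 2.0e-05). In the other kind of library Sod3 had 1.66 and 1.88 CPM in Empty_vector, 0.352 and 0.381 CPM in E1KD_SCR and 0.0340 and 0.0614 CPM in E1KD_Platr18KD. The log2 fold change in E1KD_SCR was -1.02 (SE 0.0777, adjusted p = 9.7e-08), not called without Empty_vector replicate 2. The E1KD_Platr18KD values are close to the worth of 3 reads. Sod1, the cytosolic form, had group means of 31.3 to 63.2 CPM and of 85.4 to 125 CPM in the kinds of library, and Sod2, the mitochondrial form, of 13.3 to 28.8 CPM and of 43.5 to 53.5 CPM. The overlapping gene Scaf4 on the opposite strand of Sod1 had means of 6.91 to 29.6 CPM.

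Of the glutathione peroxidases, Gpx8, which sits in the membrane of the endoplasmic reticulum, was called in 5 of the 10 comparisons. It had 1.29 and 1.09 CPM in NMuMG, 4.51 and 4.48 CPM with TGFβ, 5.55 and 3.73 in E1KD, 4.64 and 4.68 in M1P and 8.44 and 8.56 in L1P. The NMuMG libraries were the lowest and the L1P libraries the highest. The log2 fold change was 1.35 (SE 0.113, adjusted p = 1.8e-07) in E1KD and 1.33 (SE 0.113, adjusted p = 1.5e-07) with TGFβ. Among the Platr18 groups Gpx8 had 4.21 and 4.53 CPM in Empty_vector, 0.0595 and 0.0461 CPM in clone 12, 7.75 and 7.28 CPM in clone 16, 3.13 and 2.81 CPM in E1KD_SCR and 0.170 and 0.136 CPM in E1KD_Platr18KD. It was thus close to the worth of 3 reads in clone 12, where Platr18 is overexpressed, and near 0 also where Platr18 is silenced. The log2 fold change with Platr18 silencing was -1.78 (SE 0.113, adjusted p = 6.3e-08). Gpx1, the main cytosolic form, had 109 and 116 CPM in NMuMG and 234 and 198 in E1KD, a log2 fold change of 0.93 (SE 0.0983, adjusted p = 2.1e-06). Gpx4, which reduces lipid peroxides in membranes, had means of 16.9 to 36.0 CPM and of 90.4 to 116 CPM in the kinds of library and was called in no comparison.

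**Figure D2:**
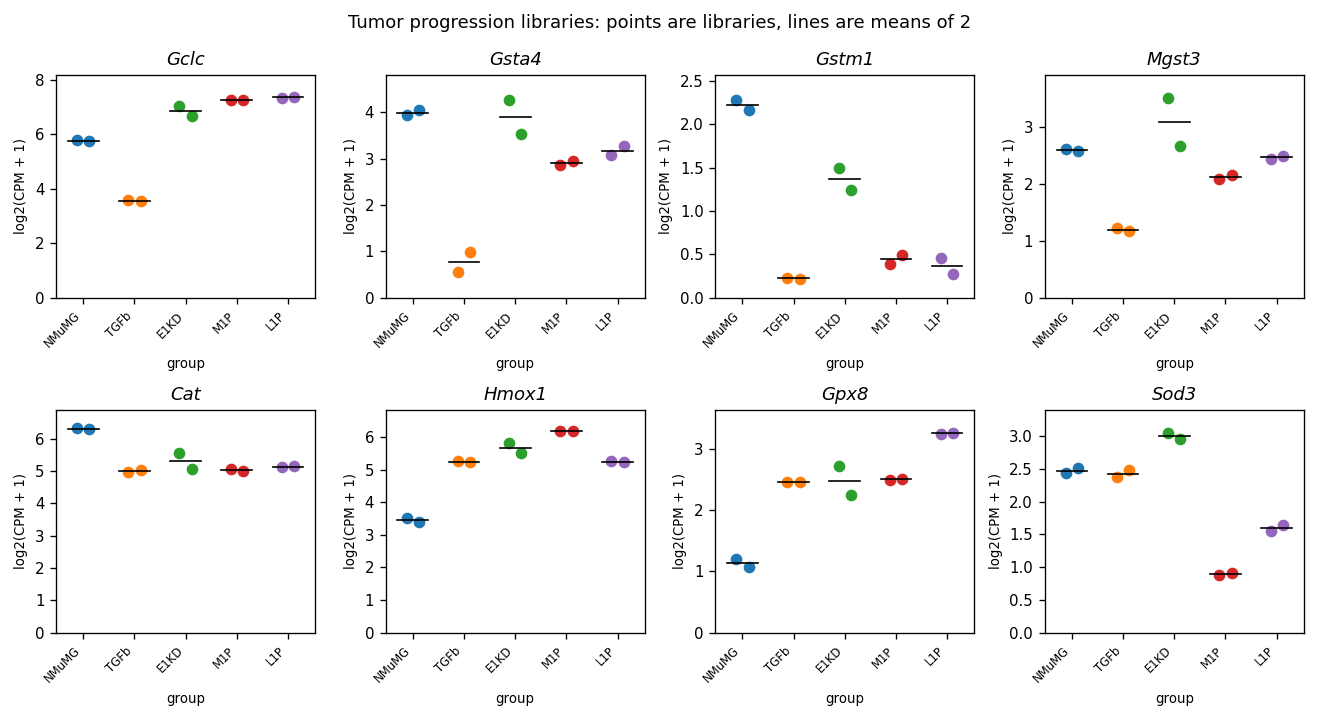
Levels of 8 members in the 5 groups of tumor progression libraries on the log2(CPM + 1) scale, with axes from 0; points are libraries and lines the means of 2. The TGFβ points of Gclc, Gsta4, Gstm1 and Mgst3 lie lowest or with the lowest, those of Hmox1 and Gpx8 lie above NMuMG, and Sod3 is lowest in M1P.

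The alpha class transferases, which reduce organic peroxides and conjugate lipid aldehydes, did not move together. Gsta4 (chr9:78182774-78209350, plus strand, GRCm38), known for conjugating 4-hydroxynonenal, had 14.3 and 15.5 CPM in NMuMG, 0.468 and 0.983 CPM with TGFβ, 18.2 and 10.6 in E1KD, 6.27 and 6.74 in M1P and 7.48 and 8.60 in L1P. The TGFβ libraries lay far below the rest, with a log2 fold change of -3.22 (SE 0.180, adjusted p = 1.4e-09). Gclc, Gsta4, Gsta1 and Gsta2 all lie between chr9:77754535 and chr9:78355789. Gsta1 was near 0 in the progression libraries, with 0.142 and 0 CPM in NMuMG and 2.15 and 0.517 in E1KD, a log2 fold change of 1.03 (SE 0.221, adjusted p = 0.0012). It was listed at 0 in both TGFβ libraries. The fold change in E1KD was 0.51 without E1KD replicate 1, and the call was also lost when either NMuMG library was left out. In the Platr18 libraries Gsta1 had 1.12 and 1.38 CPM in Empty_vector, 4.03 and 3.30 CPM in clone 12, 0.152 and 0.224 CPM in clone 16, 12.7 and 11.5 CPM in E1KD_SCR and 7.19 and 7.82 CPM in E1KD_Platr18KD. The E1KD lines were the highest, and the log2 fold change in E1KD_SCR was 2.54 (SE 0.221, adjusted p = 3.7e-07).

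Gsta2 followed the same order at lower values, with 0.206 and 0.304 CPM in Empty_vector and 2.86 and 3.08 CPM in E1KD_SCR, a log2 fold change of 1.66 (SE 0.0657, adjusted p = 5.5e-11). It reached 1 CPM only in the E1KD_SCR and E1KD_Platr18KD libraries, so it passed the filter only through the groups where it is high. In GENCODE M21 transcripts, 44.6% of the 50-base windows of Gsta1 also occur in Gsta2, so reads of the pair are split by the authors' assignment method and each value is uncertain. Gsta3, whose promoter window holds the antioxidant response core shown above, had 1.96 and 1.82 CPM in Empty_vector, 0.134 and 0.0768 CPM in clone 12, 2.40 and 2.57 CPM in clone 16, 6.23 and 5.16 CPM in E1KD_SCR and 2.65 and 2.96 CPM in E1KD_Platr18KD. Its log2 fold change in E1KD_SCR was 1.21 (SE 0.0931, adjusted p = 1.1e-07), and no library of E1KD_SCR overlapped Empty_vector for any of these 3 genes. In the progression libraries Gsta3 had 0.390 and 0.377 CPM in NMuMG and 0.492 and 0.203 in E1KD. With TGFβ it had 0.0168 and 0.0334 CPM, below the worth of 3 reads, a log2 fold change of -0.43 (SE 0.0931, adjusted p = 0.0011), not past the limit. Gsta2 was listed at 0 in both NMuMG libraries and had 0.217 and 0.0555 CPM in E1KD.

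Of the mu class transferases, Gstm1 was lower in every other group than in NMuMG or Empty_vector of the same kind. It was called lower with TGFβ and for the mean of the clones, where clone 12 stood at -0.98 and clone 16 at -1.46. Gstm1 (chr3:108012255-108017974, minus strand, GRCm38) had 3.84 and 3.49 CPM in NMuMG, 0.167 and 0.167 CPM with TGFβ, 1.81 and 1.37 in E1KD, 0.314 and 0.408 in M1P and 0.373 and 0.214 in L1P. NMuMG was the highest group, and the log2 fold change with TGFβ was -1.998 (SE 0.123, adjusted p = 3.9e-09). In the Platr18 libraries it had 4.22 and 2.82 CPM in Empty_vector, 1.22 and 1.32 CPM in clone 12, 0.637 and 0.615 CPM in clone 16, 1.37 and 1.43 CPM in E1KD_SCR and 1.34 and 1.65 CPM in E1KD_Platr18KD. For the mean of the clones the log2 fold change was -1.22 (SE 0.106, adjusted p = 1.2e-06), and it was -0.99 and not called without Empty_vector replicate 1. Under the limit of 1 in size were the log2 fold changes in E1KD, -0.85 (SE 0.123, adjusted p = 4.2e-05), and in E1KD_SCR, -0.90 (SE 0.123, adjusted p = 3.8e-05). Gstm2 had 3.44 and 3.102 CPM in M1P and 7.61 and 8.79 in L1P, and L1P was the highest of the progression groups. Its log2 fold change was 1.11 (SE 0.115, adjusted p = 1.1e-05). With only these 2 groups in the fit it was not called. Gstm5 had group means of 0.389 to 1.20 CPM and of 5.46 to 10.9 CPM in the kinds of library, and the antisense gene AC079042.1 that overlaps it had 2.73 to 17.3 CPM.

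In the omega class, whose enzymes reduce dehydroascorbate, Gsto2 rose with TGFβ. Gsto2 had 0.248 and 0.283 CPM in NMuMG and 2.02 and 2.27 CPM with TGFβ, a log2 fold change of 1.31 (SE 0.120, adjusted p = 3.1e-07). Gsto1 had 160.3 and 152 CPM in NMuMG and 284 and 285 CPM with TGFβ, a log2 fold change of 0.86 (SE 0.134, adjusted p = 6.9e-05). Both overlap Cfap43 on the opposite strand, whose mean was 36.9 CPM in NMuMG and 204 CPM with TGFβ, and the part of its reads in these values was not tested. In clone 16 Gsto2 had 5.69 and 6.54 CPM against 1.56 and 1.84 CPM in Empty_vector, with Cfap43 means of 31.3 and 20.1 CPM. That log2 fold change was 1.40 (SE 0.120, adjusted p = 1.2e-06). Means of Gsto2 were 2.86 CPM in clone 12, 2.02 CPM in E1KD_SCR and 3.57 CPM in E1KD_Platr18KD. Those of Cfap43 in the same groups were 46.0, 17.9 and 15.8 CPM, so the order of groups differed between the genes.

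The pi class pair, Gstp1 and Gstp2, was low in clone 12. Gstp1 had 28.03 and 28.9 CPM in Empty_vector, 8.20 and 8.82 CPM in clone 12 and 23.7 and 25.4 CPM in clone 16, and Gstp2 had 21.6 and 21.7 CPM, 5.79 and 6.53 CPM and 17 and 17.1 CPM in the same groups. Both clone 12 libraries lay below all others of this kind for both genes. Of the 50-base windows of Gstp1 transcripts, 51.0% also occur in Gstp2, and the authors' table lists both genes on the scaffold JH792830.1, so their values are not independent. The microsomal transferases, membrane proteins that also act on leukotrienes, split by comparison. Mgst1 had 24.5 and 22.1 CPM in Empty_vector, 2.38 and 2.39 CPM in clone 12 and 26.0 and 24.6 CPM in clone 16, a log2 fold change of -1.36 (SE 0.104, adjusted p = 3.1e-07) for the mean of the clones that rests on clone 12. Mgst2 had 12.04 and 11.2 CPM in NMuMG and 4.82 and 4.51 CPM with TGFβ, a log2 fold change of -1.15 (SE 0.1002, adjusted p = 1.8e-07). Mgst3 had 5.13 and 4.94 CPM in NMuMG, 1.34 and 1.25 CPM with TGFβ and 10.3 and 5.34 in E1KD, and its log2 fold change with TGFβ was -1.40 (SE 0.177, adjusted p = 9.3e-06). The TGFβ libraries were the lowest of their kind for both. Mgst1 had 7.10 and 6.51 CPM in NMuMG and 11.7 and 12.2 CPM with TGFβ, a log2 fold change of 0.73 (SE 0.120, adjusted p = 1.1e-04), which did not pass the limit.

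**Figure D3:**
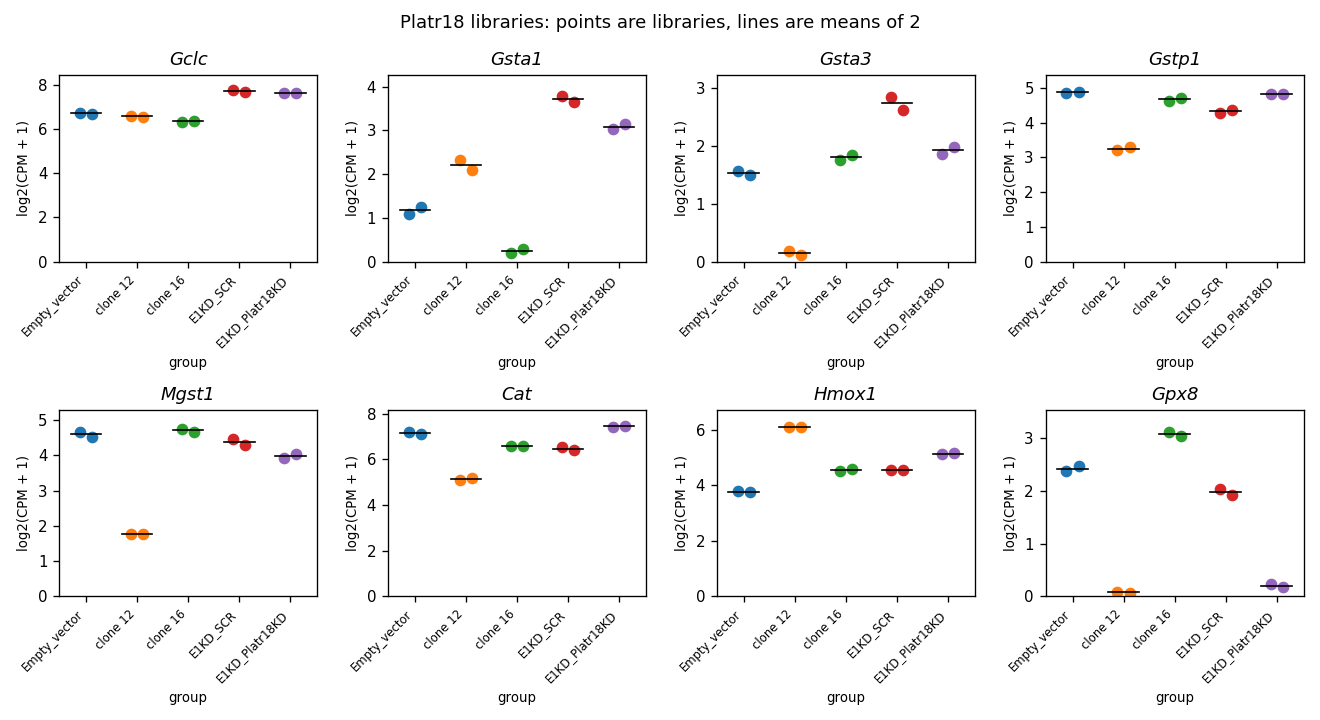
Levels of 8 members in the 5 groups of Platr18 libraries on the log2(CPM + 1) scale, with axes from 0; points are libraries and lines the means of 2. Clone 12 is lowest for Gstp1, Mgst1, Cat and Gpx8 and highest for Hmox1, and the E1KD lines are highest for Gclc and Gsta1.

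The paper describes both TGFβ and hnRNP E1 silencing as inducers of an epithelial-mesenchymal transition (EMT) in NMuMG cells. The difference between them was tested directly. E1KD was higher than TGFβ-treated cells in 9 members and lower in none, beside 17.2% of all genes higher and 6.17% lower, and 30 of the 32 tested members passed at an adjusted p under 0.05, beside 71.5% of all genes. The differences were 3.28 (SE 0.0892, adjusted p = 3.8e-13) for Gclc, 3.13 (SE 0.180, adjusted p = 1.3e-09) for Gsta4 and 1.89 (SE 0.177, adjusted p = 2.8e-07) for Mgst3. G6pdx differed by 1.74, Prdx1 by 1.26, Gstm1 by 1.15, Txn1 by 1.14, Gsta1 by 1.13 and Sod2 by 1.03, with a largest adjusted p of 0.00037. Sod2 had 33.9 and 23.8 CPM in E1KD and 13.2 and 13.5 CPM with TGFβ. The median of all genes in this comparison was 0.26 and that of the tested members 0.62. After rescaling by the median of ratios the calls over all genes were 9.82% higher and 10.7% lower, and 4 members were called higher (Gclc, Gsta4, Mgst3 and G6pdx) and 2 lower (Gsto2 and Mgst1), with a members' median of 0.33. Without E1KD replicate 1, 5 were called higher and 2 lower.

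The effect of hnRNP E1 silencing in both kinds of library was compared by an interaction term, in which 3 members were called in each direction, beside 2.57% of all genes higher and 0.947% lower, and 7 tested members passed at an adjusted p under 0.05, beside 21.3% of all genes. As progression minus Platr18 libraries, the effect differed for Gpx8 by 1.78 (SE 0.160, adjusted p = 2.0e-06), with fold changes of 1.35 and -0.44, and for Hmox1 by 1.43 (SE 0.113, adjusted p = 5.4e-07), with fold changes of 2.22 and 0.79. Sod3 differed by 1.55 (SE 0.110, adjusted p = 1.7e-07), with fold changes of 0.53 and -1.02 in the kinds of library. The other 3 were alpha class transferases, with differences of -1.51 for Gsta1, -1.48 for Gsta2 and -1.25 for Gsta3. These 6 were called after both rescalings and without E1KD replicate 1. For Gsta1 the difference rests on the scale: it was -0.26 and not called with a pseudocount of 0.1, the ratio of mean CPM was 18.8 in the progression libraries and 9.69 in the Platr18 libraries, and 4 of the 8 fits without 1 library did not call it. Gsta2 had 0 CPM in both NMuMG libraries and a mean of 0.136 CPM in E1KD, so its progression side rests on few reads. Its ratio of mean CPM was at least 2.48 there and 11.65 in the Platr18 libraries. Gsta2 passed the filter only through E1KD_SCR and E1KD_Platr18KD, and E1KD_SCR enters this difference, so its call is no support of its own. Gsta3 was low on the progression side, with means of 0.383 CPM in NMuMG and 0.348 CPM in E1KD. Its difference was -1.725 with a pseudocount of 0.1. The scrambled shRNA, the empty vector and the kind of library cannot be told apart in these differences. After rescaling by the median of ratios the calls over all genes were 1.86% higher and 1.27% lower.

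**Figure D4:**
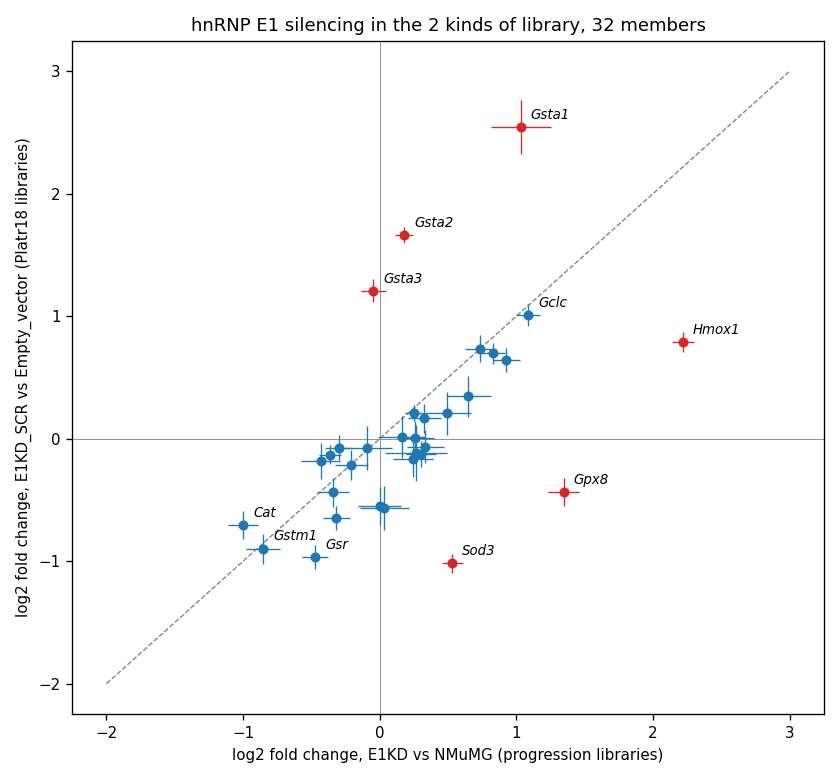
Log2 fold changes with hnRNP E1 silencing in the progression libraries (x axis) and in the Platr18 libraries (y axis) for the 32 tested members, with standard errors as bars and the line of equal change dashed. Gclc lies on the line at 1.085 and 1.01, while the 6 members in red, called in the test of the difference, lie away from it.

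The Platr18 clones differed from each other in 11 members, while 4 were called for their mean against Empty_vector. Clone 16 was higher than clone 12 in 8 members (Gpx8, Mgst1, Gsta3, Cat, Gstp1, Gstp2, Gpx1 and Gsr) and lower in 3 (Gsta1, Hmox1 and Gsta4), beside 2.71% of all genes higher and 1.68% lower. At an adjusted p under 0.05, 20 of the 32 tested members passed, beside 42.5% of all genes. The differences were 3.01 (SE 0.113, adjusted p = 7.9e-11) for Gpx8, 2.96 (SE 0.120, adjusted p = 1.9e-10) for Mgst1 and 1.66 (SE 0.0931, adjusted p = 5.8e-09) for Gsta3. Those of Cat, Gstp1 and Gstp2 were 1.46, 1.42 and 1.33. Gpx1 had 33.6 and 41.4 CPM in clone 12 and 85.4 and 88.5 CPM in clone 16, a difference of 1.20, and that of Gsr was 1.15. Gsta4 had 54.4 and 54.6 CPM in clone 12 and 22.03 and 21.7 CPM in clone 16, a difference of -1.28. Gsta1 differed by -1.97 and Hmox1 by -1.55. All 11 had adjusted p of at most 5.3e-05, and their libraries did not overlap. With 1 clone at each level of Platr18, the level and the clone cannot be told apart.

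Of a further list of genes of glutathione metabolism and the NRF2 response that are no members, 73 were tested. Shares of the list are given beside the shares of all genes tested. With TGFβ 2 were called higher (2.74% beside 5.85%) and 14 lower (19.2% beside 7.66%), and among them were Akr1b3 at 2.73, Ugdh at -2.37, Aldh1a1 at -2.35 and Hpgds at -2.23. In E1KD 11 were higher (15.1% beside 6.44%) and 5 lower (6.85% beside 2.99%), with Msrb3, a methionine sulfoxide reductase, at 3.40 and Prdx4, the peroxiredoxin of the secretory pathway, at -3.095. In E1KD_SCR 8 were higher (11% beside 2.91%) and 4 lower (5.48% beside 3.07%), with Msrb3 at 3.32 and Prdx4 at -4.52, the same directions as in E1KD. The libraries are separate, but E1KD_SCR is E1KD with a scrambled shRNA, so traits of the silenced line itself can appear in both. Abcc2, an export pump for glutathione conjugates, was at 1.95 in E1KD and 4.17 in E1KD_SCR. From E1KD to M1P 2 were higher (2.74% beside 1.16%) and 4 lower (5.48% beside 2.43%), with Akr1b3 at -3.29, and from M1P to L1P only Cbr1 was called, at -1.20 (1.37% lower beside 0.468%). Against TGFβ-treated cells, E1KD was higher in 30 (41.1% beside 17.2%) and lower in 3 (4.11% beside 6.17%). The mean of the clones was lower in 2 (2.74% beside 1.03%), Akr1c13 at -1.14 and Msrb2 at -1.03. With Platr18 silencing Hpgds was higher, at 1.20, and Akr1b3 lower, at -1.01 (1.37% each, beside 0.485% and 0.994%). Clone 16 was higher than clone 12 in 6 (8.22% beside 2.71%) and lower in 2 (2.74% beside 1.68%), with Cbr1 at 2.05.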

How the data were processed

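RNA was measured by RNA-Seq in 20 libraries, 2 in each of 10 groups, as labelled in GEO. Per the labels and the methods, the authors aligned reads with Bowtie2 2.2.5 to GRCm38.p6, assigned them to the mouse M18 annotation by expectation maximization in Partek, and deposited CPM, read counts scaled to the total of each library, with 0.0001 added to each value. The scaling divides each library by its own total, so a few abundant genes move all other values, and the kinds of library were not compared with each other in level. Of the values under 50 reads, 89.4 to 97.5% per library lay within 0.02 of a whole read, which was not taken as nearly all, so no count test was run. Every deposited column was used except gene annotation.

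Tested were the 17106 of 54986 genes that reached 1 CPM in 2 or more libraries, on log2(CPM + 1) by limma 3.58.1 (R 4.3.3) with a mean for each group, an intensity trend and 10 residual degrees of freedom. Called members had an unadjusted p under 0.001 and a log2 fold change of at least 1 in size. A second rule took an adjusted p under 0.05 with no limit on size. All p-values are two-sided and adjusted by Benjamini-Hochberg over all genes tested. On simulated data for E1KD against NMuMG, 199 of 200 changed genes were called and 0 of 16906 unchanged ones. The changed genes there averaged at least 5 CPM in the progression libraries and all changed by more than the limit. All genes had the same small added spread, and E1KD replicate 1 was not shifted. The simulation therefore checks that the code runs as meant and does not measure error rates for low members or for E1KD replicate 1. The members, gene lists and tests were chosen with earlier results of these data known. Every member called was named, with Nfe2l2 and Keap1 in any case, and at most 4 genes per comparison of the further list. The text gives depths as read totals, which cover counting error only. Alternatives were the pseudocount, the filter, the scaling, the libraries in the fit, the threshold, the replicate number as a block and leaving out each library. The deviations of same-numbered libraries had correlations of -0.39 to 0.29 between groups, with no common sign, so the numbers were not used as pairs. Figures were drawn with matplotlib 3.10.9.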

Additional observations from a re-analysis of the deposited data

Results flagged for a closer look

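Differences passed the limits of the text in 17 cases, each tested by limma in the fit of all 20 libraries, with values on the log2 scale. The effect of hnRNP E1 silencing in the progression libraries minus that in the Platr18 libraries was 1.78 for Gpx8, 1.55 for Sod3, 1.43 for Hmox1, -1.51 for Gsta1, -1.48 for Gsta2 and -1.253 for Gsta3. For Gsta1 the difference was -0.26 with a pseudocount of 0.1 and was then not called. Gsta2 rested on few reads in the progression libraries and passed the filter only through E1KD_SCR and E1KD_Platr18KD.

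The level in clone 16 minus that in clone 12, each a single clone whose level of Platr18 cannot be told apart from the clone itself, was 3.01 for Gpx8, 2.96 for Mgst1, 1.66 for Gsta3, 1.46 for Cat, 1.42 for Gstp1, 1.33 for Gstp2, 1.20 for Gpx1 and 1.15 for Gsr. It was -1.97 for Gsta1, -1.55 for Hmox1 and -1.28 for Gsta4. For Gpx8, clone 12 stood at -2.35 and clone 16 at 0.66 against Empty_vector, and for Gsta1 they stood at 1.05 and -0.92, in opposite directions. Both clones lay above Empty_vector for Hmox1, at 2.33 and 0.78.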

How the results depend on the processing

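No call of a member changed direction under any setting run. The counts of members called that moved by more than 1.5 times were these. In E1KD against NMuMG 5 members were called, with 3 after the filter of a mean of at least 5 CPM, 3 after rescaling by the median of ratios, 3 after rescaling to equal sums, 1 when the other groups were left out of the fit, and 3 to 6 when a library was left out. From E1KD to M1P the 1 call became 4 with a pseudocount of 0.1, 0 under the filter and 1 to 5 without a library. From M1P to L1P the 1 call became 2 with that pseudocount, 0 under the filter and 0 with only the compared groups. For the clones against Empty_vector 4 became 8 with the pseudocount of 0.1. For Platr18 silencing 1 became 3 with that pseudocount, 0 under the filter, 2 under both rescalings and 1 to 2 without a library. In E1KD_SCR against Empty_vector 5 became 1 under the filter, and in the comparison of both kinds of library 6 became 1. In E1KD against TGFβ 9 became 2 with only the compared groups and 7 to 15 without a library. The filter on means removed low members such as Gpx8, Sod3 and Gsta1, and the cause of the other changes was not tested. The counts over 2-group fits rest on 4 libraries. In such fits TGFβ against NMuMG kept 10 calls, E1KD_SCR against Empty_vector 5 and clone 16 against clone 12 11.

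Of 53 calls, 44 held after rescaling by the median of ratios and 52 with a pseudocount of 0.1, and 222 of 244 held when a library was left out. With the replicate number as a block, 53 of 53 held, and E1KD against NMuMG again had 5 calls. Members under 1 CPM, such as Nqo1, are limited by depth, since few reads stand behind them.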
